A study of Mus musculus with 5 samples.

Results

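The genes described here are 86 nuclear genes of oxidative phosphorylation, the process by which mitochondria pass electrons along a chain of membrane complexes and use the resulting proton gradient to make ATP. They were chosen by symbol: the protein-coding genes whose GRCm38 symbol begins with Nduf followed by a, b, c, s or v (complex I and its assembly factors), with Uqcr (complex III), with Cox and a number from 4 to 8 (complex IV) or with Atp5 (complex V), without pseudogene symbols and with at least 10 counts summed over the 5 libraries. Of 55487 genes in the counts table, 27363 had at least 1 count, 90 matched by symbol and 86 were members. The 4 that fell under the count rule were Cox7b2, Cox8b and Cox8c, which are tissue-restricted forms with 8, 4 and 0 counts in all, and a copy of Atp5o that was listed at 0 in every library. The members comprised 38 genes of complex I, 8 complex I assembly factors, 8 genes of complex III, 15 of complex IV and 17 of complex V.

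The RNA came from HT22 cells, a mouse hippocampal neuronal cell line, collected 48 h after transfection with 10 nM of siRNA. Of the siRNAs against GAS5, siRNA210 gave 1 library and siRNA596 gave 2, which together form the KD group, and negative-control siRNA gave the 2 libraries of the NC group. The treatment label of the NC libraries reads untreated, whereas their titles read NC and the transfection protocol names NC siRNA. No other treatment or genotype was given for any group, nothing states that the libraries came from separate cultures, and *P*-values therefore measure the spread between these libraries, which may be technical. Of 8 neuronal markers, Nefl, Nefm, Snap25 and Stmn2 were at 0 in all 5 libraries and Rbfox3 had 2 counts in 1 library and 0 in the rest, whereas Syn1 ranged from 20 to 64 counts, Tubb3 from 497 to 970 and Map2 from 833 to 3336. Of 4 markers of neural progenitors, Nes ranged from 12449 to 18195 counts and Pax6 from 944 to 1894, and Sox2 and Hes5 were at 0 in all 5 libraries. Of 6 mesenchymal markers, Col1a1 ranged from 78569 to 157995 counts and Col1a2, Col3a1, Pdgfrb and Vim had at least 1560 in every library, whereas Thy1 had 0 to 8.

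Complex I takes electrons from NADH, complex III passes them to cytochrome c, and complex IV hands them to oxygen. Complex V, the ATP synthase, uses the proton gradient built by these complexes. A few core subunits are encoded in mitochondrial DNA, whereas the members here are read from the nucleus and their proteins are imported. The study asked what changes in HT22 cells when GAS5, a long non-coding RNA, is depleted. Its RNA pull-down from mouse hippocampus gave many potential interacting proteins. A cluster of them that the study names holds proteins of 5 members (Uqcrq, Uqcrb, Ndufb6, Ndufb11 and Ndufs6). The other proteins of the pull-down were not compared with the members here.

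Gas5 itself was measured first as a check of the labels. NC replicates held 3178 and 2916 counts. siRNA210 gave 2134, siRNA596 replicate 1 gave 2357, and the library labelled siRNA596 replicate 2 gave 4727. Both of the first KD libraries were below NC, and the last library was above every other. With the 4 libraries that exclude it, the log2 fold change of Gas5 was -0.41 (SE 0.11, unadjusted *P* = 0.00377 and adjusted *P* = 0.967 by the quasi-likelihood test of edgeR with Benjamini-Hochberg adjustment). With siRNA210 left out, the unadjusted *P* by the same edgeR test was 0.0513. Adding the fifth library moved the Gas5 estimate to 0.29 (SE 0.53). With offsets for length and GC content in that fit, the estimate for Gas5, a transcript of 502 bases, was -0.02. The library totals ran from 30660265 to 36492134 counts. The mean expression in the authors' deposited comparison could be rebuilt from the 4 libraries without the library labelled siRNA596 replicate 2 and not from all 5. Among 10574 genes, 3321 in that library lay over 2-fold from all the other libraries, against 27 to 81 in each of the others. The results below are given first for 2 KD against 2 NC libraries, and then with the fifth.

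The promoters of the members carried a few short motifs that are known from respiratory genes, which are shown first because the rule for choosing members did not use them. A RefSeq promoter of 300 bases (250 before and 50 after the start, build GRCm38.p6) was found for 69 of the 86 members, 74 promoters in all. Letters were searched on both strands. The NRF1 motif GCGCATGCG, bound by nuclear respiratory factor 1, was in 10 of the 74 promoters (13.5%), against 1.75% of all 32851 promoters and 3.55% of the 12545 promoters of protein-coding genes with at least 20 NC counts. In 7 of the 10 members it formed the palindrome GCGCATGCGC, which matches on both strands at 1-base offset and was counted once. Those of 5 members, from complexes I, IV and V and the assembly factors, are given 5′ to 3′ with the palindrome in capitals.
Atp5g2 (chr15:102671055-102671114, minus strand): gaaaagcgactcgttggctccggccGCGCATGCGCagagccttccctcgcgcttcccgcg
Atp5k (chr5:108434415-108434474, minus strand): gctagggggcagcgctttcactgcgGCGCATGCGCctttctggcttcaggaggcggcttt
Cox6a1 (chr5:115349086-115349145, minus strand): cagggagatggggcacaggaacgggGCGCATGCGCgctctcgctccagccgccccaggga
Ndufa11 (chr17:56717677-56717736, plus strand): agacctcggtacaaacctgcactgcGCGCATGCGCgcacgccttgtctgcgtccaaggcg
Ndufaf4 (chr4:24897945-24898004, plus strand): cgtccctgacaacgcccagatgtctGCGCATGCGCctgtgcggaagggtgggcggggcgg

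The YY1 motif AAGATGGCG was in 8 of the 74 promoters (10.8%), against 1.40% of all promoters and 2.93% of those of genes with at least 20 NC counts. In 7 of the 8 members the match lay after the transcription start. It is shown for 5 complex I genes with 10 bases before it and 6 after it, the motif in capitals. Ndufs6, whose protein was among those of the pull-down, is the first.
Ndufs6 (chr13:73328435-73328459, minus strand): ggtcaccggcAAGATGGCGgcggtg
Ndufs4 (chr13:114388045-114388069, minus strand): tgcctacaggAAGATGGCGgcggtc
Ndufs7 (chr10:80249463-80249487, plus strand): ggccgaggccAAGATGGCGgcgctg
Ndufa9 (chr6:126849101-126849125, minus strand): attgtgggagAAGATGGCGgccgcc
Ndufc1 (chr3:51408919-51408943, minus strand): cctgcggaacAAGATGGCGccgtcc

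The ETS motif CCGGAAGT, bound by the GABPA factor, was in 5 of the 74 promoters (6.76%), against 3.89% of all promoters and 7.94% of those of genes with at least 20 NC counts. The ERR motif TCAAGGTCA was in 1 promoter (1.35%), that of Atp5g3, against 0.423% and 0.279%. In 46 of the 69 members none of the 4 motifs was present in the window. Uqcr11, a small subunit of complex III, was the only member with more than 1 kind, an ETS match followed by an NRF1 match across the start, both in capitals here.
Uqcr11 (chr10:80406818-80406911, minus strand): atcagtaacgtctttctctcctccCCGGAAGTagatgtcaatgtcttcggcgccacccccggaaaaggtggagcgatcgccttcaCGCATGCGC
The members held a median of 19.5 CpG dinucleotides per promoter, against 7 in all promoters and 20 in those of genes with at least 20 NC counts.

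In the NC libraries the members took 0.914% and 0.913% of all counts. Levels between genes are compared as TPM, in which each count is divided by the transcript length and the library is scaled to a fixed sum. The mean of both NC libraries was highest for Atp5b, the catalytic beta subunit of ATP synthase, at 2017 TPM. Next in complex V came Atp5g2 at 966 TPM and Atp5g3 at 884 TPM, with Atp5g1 at 379 TPM. All of these 3 genes encode the same mature c subunit of the rotor ring. The lowest of complex V was Atp5s, also known as a coupling factor of the synthase, at 10.8 TPM. In complex IV, Cox8a had 1219 TPM and Cox6a1 1129 TPM, and in complex III, Uqcrq had 576 TPM and Uqcrh, the hinge protein, 427 TPM. Uqcrc2, a core protein, was the lowest of complex III at 107 TPM. In complex I, Ndufa4 had 388 TPM and Ndufb7 350 TPM, although the Ndufa4 protein is now regarded as a subunit of complex IV. The assembly factors, which help to build complex I and are not part of it, ran from 10.6 TPM for Ndufaf4 to 45.5 TPM for Ndufaf7, and all 8 lay below the lowest complex III gene. 

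Where a subunit has forms for different tissues, the widely expressed form dominated in every library. Cox4i1 had 9234 to 23370 counts over the 5 libraries, and Cox4i2, its lung and hypoxia-associated form, had at most 4 in any library (NC 2 and 3, siRNA210 0, siRNA596 4 and 2). Cox6a2, the heart and muscle form, stood at 7 and 0 for NC, 9 for siRNA210, and 2 and 12 for siRNA596. Cox6b2, the testis form, was at 0 in both NC libraries, with KD values of 4, 0 and 6. These 3 genes were the members that did not pass the filter on low counts. No fold change is given for them. Cox7a1, the heart and muscle form, had 12.0 TPM in NC against 344 TPM for Cox7a2 and 213 TPM for Cox7a2l, which takes part in supercomplex assembly. Ndufa4l2, the hypoxia-associated relative of Ndufa4, was at 0.996 TPM.

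**Figure D1:**
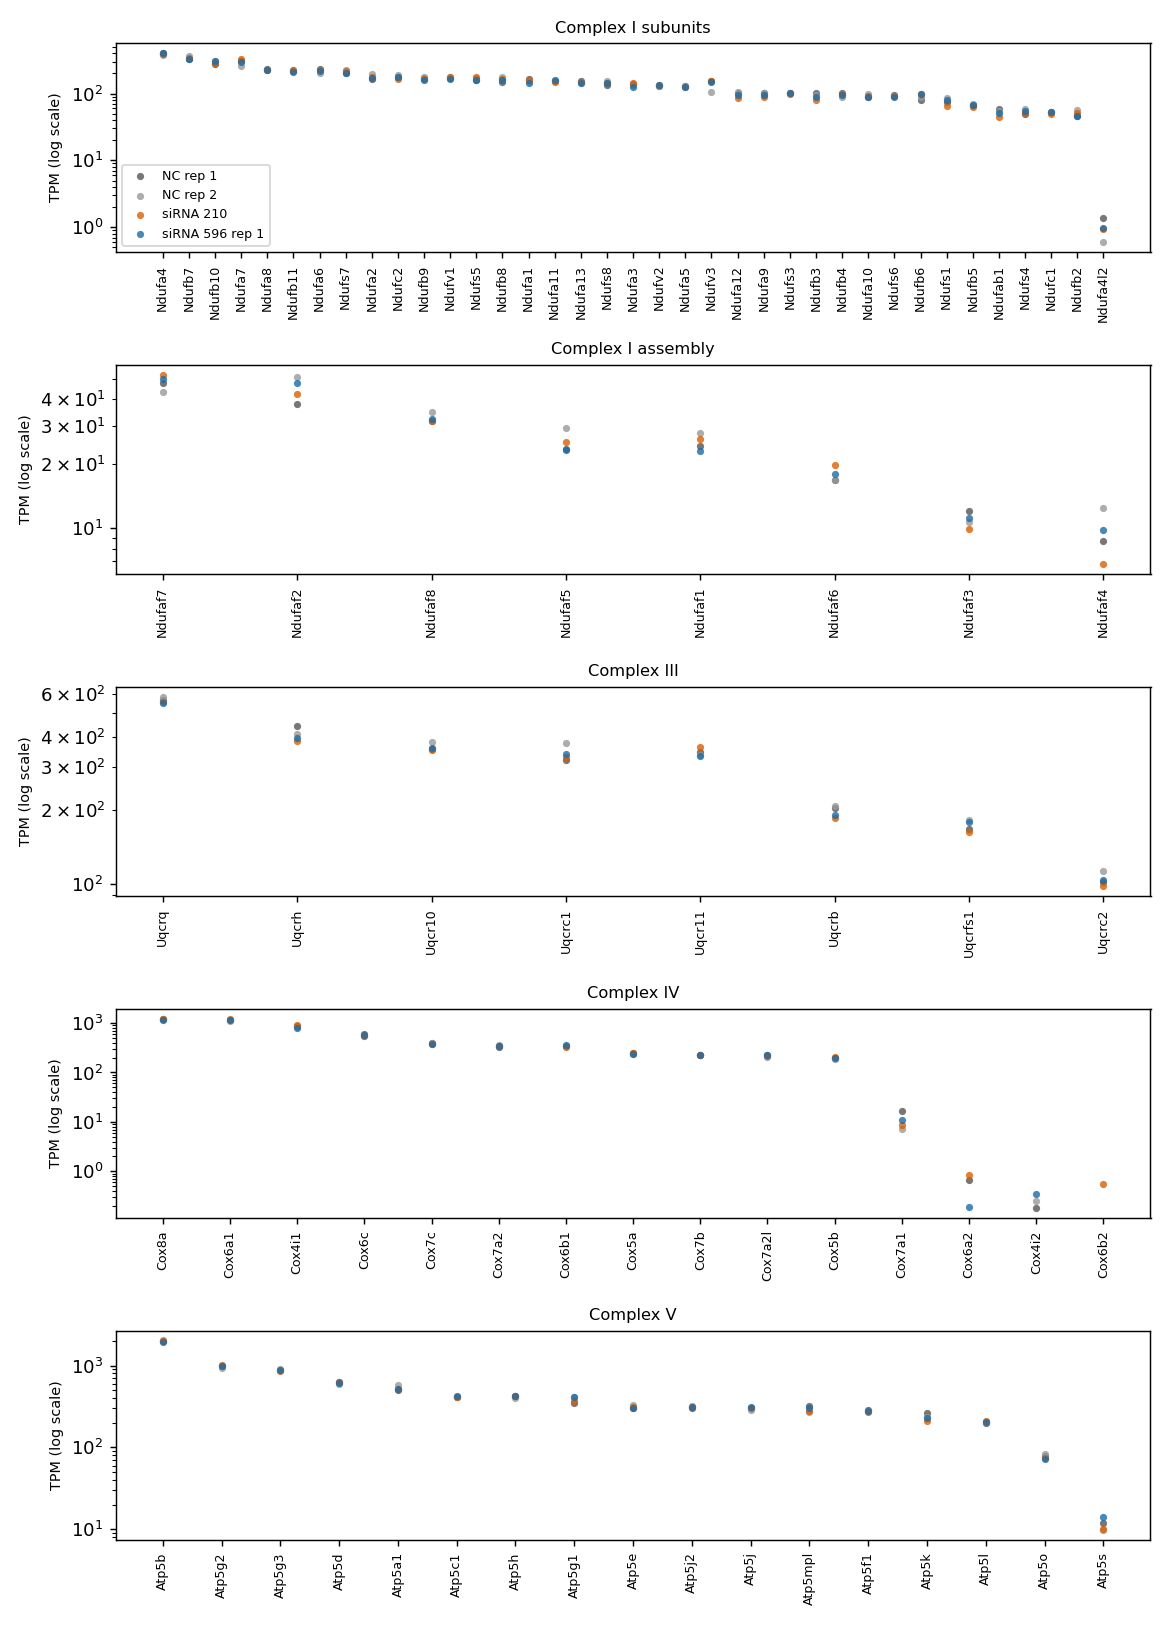
Level of the members, apart from 1 that is not drawn, in the NC, siRNA210 and siRNA596 replicate 1 libraries, in TPM on a log axis, with 1 panel for each class and genes ordered by their NC mean. A level of 0 is not drawn, and the 4 points of most genes lie on top of each other, with Atp5b highest at 2017 TPM in NC.

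With 2 KD against 2 NC libraries, none of the 83 members that passed the filter met the study's criteria for DEGs (unadjusted *P* under 0.05 and over 2-fold change), against a background of 0.876% of 15867 genes tested. No member had an unadjusted *P* under 0.05 by the edgeR test, against 3.3% of all genes. With DESeq2 the number was also 0, with a background of 2.32%. The lowest adjusted *P* of a member by edgeR was 0.967. The members' log2 fold changes ran from -0.32 (Ndufaf4) to 0.25 (Ndufv3) with a median of 0.0026, and 45 of the 83 were above 0, against a median of -0.0023 and 49.5% over all genes. In 66 members the change was under 0.1 on the log2 scale, and in 81 the 95% interval lay within 2-fold. The exceptions were the low genes Ndufa4l2, with an interval from -1.53 to 1.47, and Cox7a1, with an interval from -1.25 to 0.75. The shares over all genes for these 2 counts are not given here. The median absolute log2 change was 0.049 in the members and 0.119 over all genes, and the median SE 0.093 and 0.142. Genes were not matched for expression level, so the narrow intervals are not read as a trait of this group. The summed level of the members, in CPM (counts divided by the library size after TMM scaling), was 8809 and 8686 in NC, 8928 with siRNA210 and 8681 with siRNA596 replicate 1. The KD libraries lay on either side of the NC range, and the difference was 0.0073 on the log2 scale (exact permutation test, two-sided *P* = 1, where 2 against 2 cannot go below 0.333). In RNA from whole cultures, fewer cells and less RNA per cell cannot be told apart.

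Both KD libraries lay above both NC libraries in 8 members (9.64%), against 16.7% of all genes, and below both in 12 members (14.5%), against 16.2%. Those above included Ndufb6, Ndufv2, Ndufaf6, Ndufaf7, Cox5b, Atp5j and Atp5l. Those below were Ndufa12, Ndufa5, Ndufa9, Ndufab1, Ndufb3, Ndufb9, Uqcrb, Uqcrh, Uqcrq, Cox7c, Atp5k and Atp5o. The highest of the 4 libraries exceeded the lowest by 11.8% in the median member, against 25.8% in the median gene tested. Genes were not matched for expression level in this comparison, and low counts spread more. The highest library was over 1.5 times the lowest in 4 members, which were Cox7a1, Ndufa4l2, Ndufaf4 and Ndufv3. Ndufv3, a subunit of the NADH-binding part of complex I, shows what this meant for the test. It gave 3699 counts in NC replicate 1 and 2679 in NC replicate 2, 3834 with siRNA210 and 3637 with siRNA596 replicate 1, so that NC replicate 2 alone was low. Without NC replicate 1 its log2 fold change was 0.58 (unadjusted *P* = 0.00162, adjusted *P* = 0.207 by edgeR), and Ndufa7 and Ndufaf7 also had an unadjusted *P* under 0.05, where 16.5% of all genes did. Without NC replicate 2 the members under that threshold were Ndufb6, Uqcrh and Atp5k, against 2.52% of all genes, and without siRNA596 replicate 1 it was Ndufaf4, against 2.1%.

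**Figure D2:**
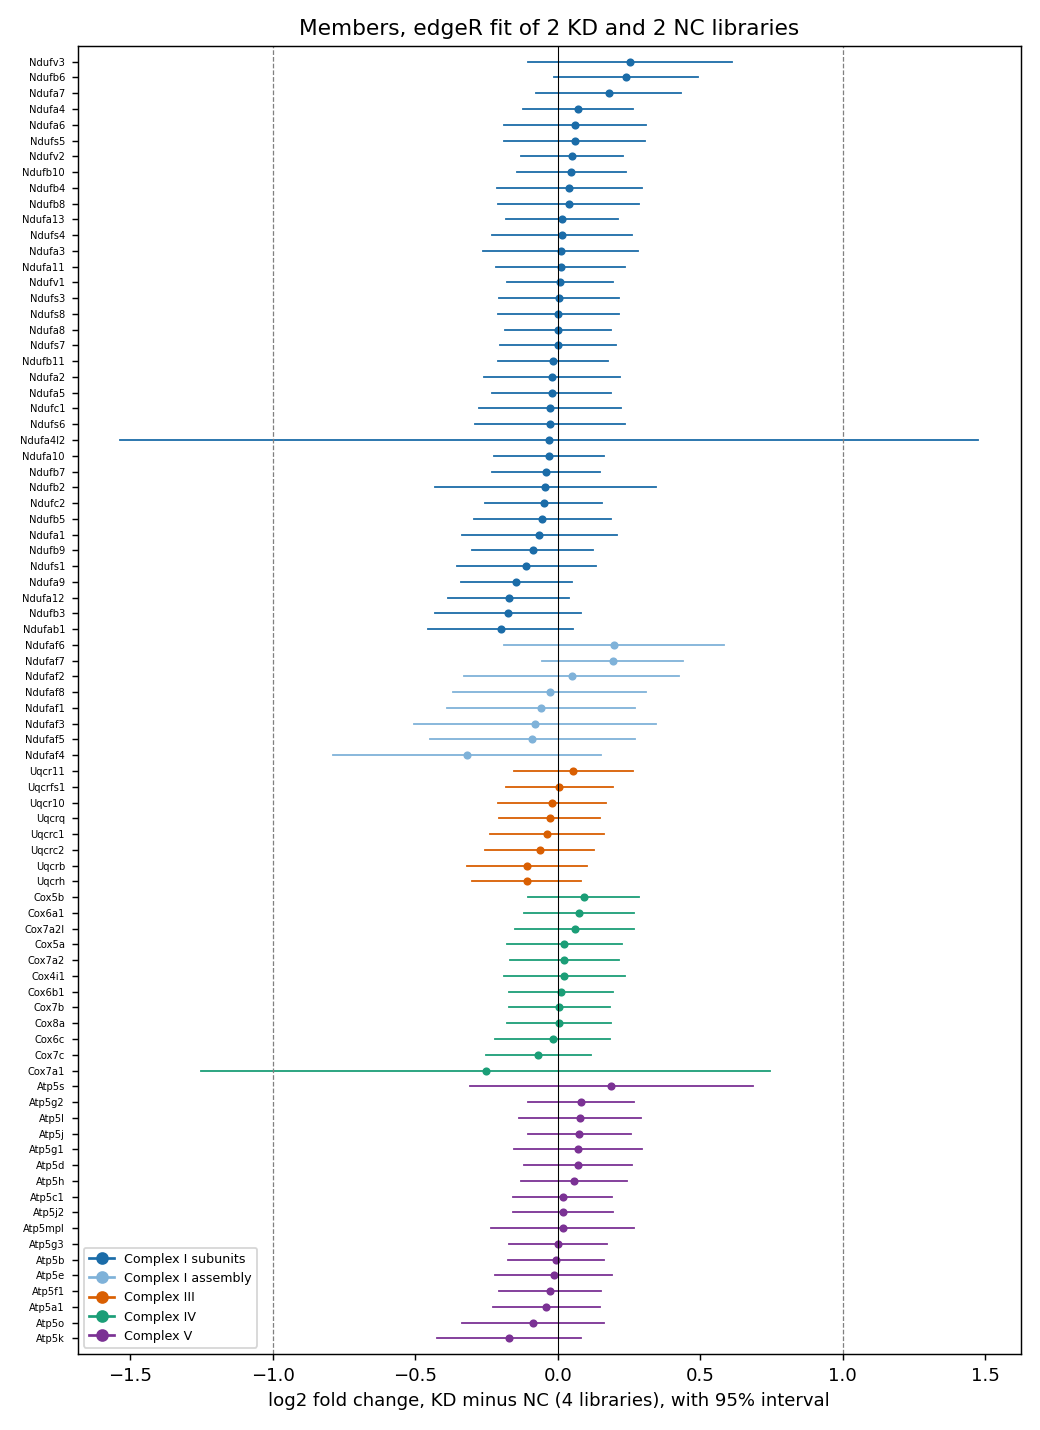
Log2 fold change of the 83 members, of which 1 is not drawn, KD minus NC, fitted with edgeR on 2 KD and 2 NC libraries, with lines for the 95% interval and dashed lines at 2-fold. Every interval drawn includes 0, and those of Ndufa4l2 and Cox7a1 reach past 2-fold.

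The 5 members of the pull-down cluster were next taken in turn. The pull-down concerned proteins from the hippocampus of young mice, whereas the values here are RNA levels in HT22 cells and do not test binding. For Uqcrq, a small ubiquinone-binding subunit of complex III, NC gave 3517 and 3842 counts, siRNA210 gave 3569, siRNA596 replicate 1 gave 3465, and the library labelled siRNA596 replicate 2 gave 10183. Its log2 fold change with 4 libraries was -0.03 (SE 0.08, unadjusted *P* = 0.732, edgeR). Uqcrb, another small subunit of complex III, gave 1678 and 1817 counts under NC siRNA and, in the same order, KD counts of 1575, 1588 and 4005. Its log2 fold change was -0.11 (SE 0.09, unadjusted *P* = 0.282, edgeR), with the first 2 KD libraries both below NC. The counts of Uqcrb are uncertain, since 43.2% of its 50-base sequences also occur in other genes, which are 4 pseudogenes.

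Ndufb6, an accessory subunit of the membrane arm of complex I, had the smallest unadjusted *P* of all members. Its NC counts were 820 and 949 and its KD counts 1023, 1010 and 1893, all 3 of them above NC. Its log2 fold change with 4 libraries was 0.24 (SE 0.11, 95% interval from -0.01 to 0.49, unadjusted *P* = 0.0605 and adjusted *P* = 0.967, edgeR). With 1 of the 4 libraries left out, the log2 fold change of Ndufb6 ran from 0.20 (without NC replicate 1) to 0.29 (without NC replicate 2). With DESeq2 as the test of the 4 libraries, the unadjusted *P* was 0.098. The exons of Ndufb6 overlap those of Smim27 on the opposite strand over 39.0% of its length, and the strand setting of the counting is not given in the sources used here. Ndufb11, also of the membrane arm, had NC counts of 3094 and 3204 and KD counts of 3148, 2925 and 7007, and its log2 fold change was -0.02 (SE 0.08, unadjusted *P* = 0.85, edgeR). Ndufs6, a zinc-binding subunit of the peripheral arm, had NC counts of 819 and 856 and KD counts of 815, 788 and 2628, with a log2 fold change of -0.03 (SE 0.12, unadjusted *P* = 0.822, edgeR). For both genes the first 2 KD libraries differed from NC by less than the SE of the fit, and the last library stood far above.

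**Figure D3:**
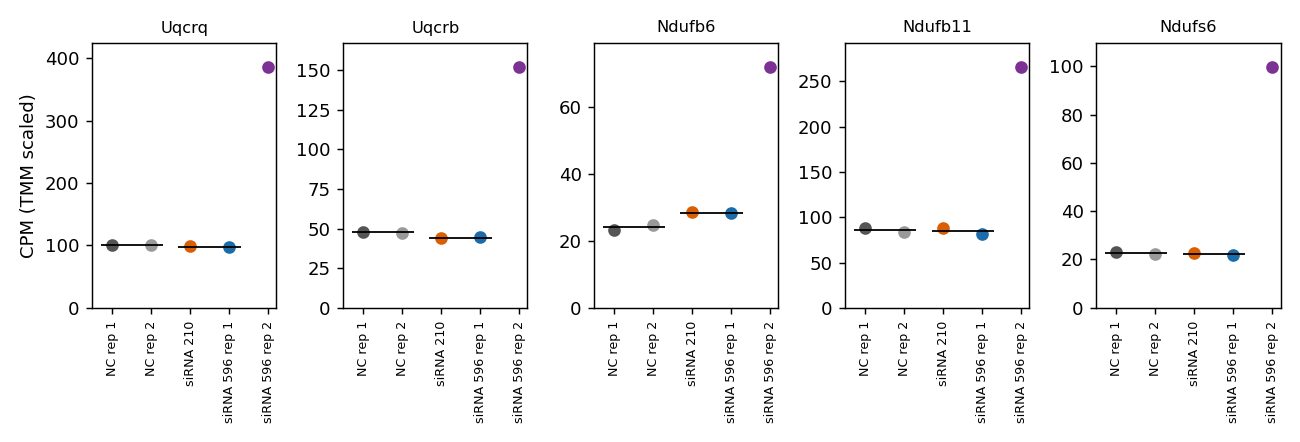
CPM of the 5 members of the pull-down cluster in each library, on axes that start at 0. Lines mark the mean of the NC libraries and the mean of siRNA210 and siRNA596 replicate 1. The first 4 libraries lie close together for each gene, and the library labelled siRNA596 replicate 2 is the highest in all 5.

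Among the other complex I genes, those with the smallest unadjusted *P* after Ndufb6 were Ndufa12 and Ndufab1. Ndufa12 had 1755 and 1874 counts in NC against 1528 and 1611 in the first 2 KD libraries (log2 fold change -0.17, SE 0.09, unadjusted *P* = 0.102, edgeR). Ndufab1, the mitochondrial acyl carrier protein, had 1252 and 1256 against 1014 and 1116 (log2 fold change -0.20, SE 0.11, unadjusted *P* = 0.107, edgeR). Of the assembly factors, Ndufaf7 was at 1278 and 1231 counts in NC against 1449 and 1352 in KD (0.19, SE 0.11), and Ndufaf4 at 485 and 731 in NC against 391 and 553 in KD (-0.32, SE 0.21), so that the spread within NC was larger than the difference for Ndufaf4. Ndufaf6 had 277 and 295 counts in NC against 340 and 300 in KD (0.20, SE 0.17).

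In complex III, Uqcrh had 3708 and 3655 counts in NC against 3330 and 3339 in KD (-0.11, SE 0.08), and Uqcrc2 had 2954 and 3485 in NC against 2945 and 3049 in KD (-0.06, SE 0.08). In complex IV the smallest unadjusted *P* was that of Cox5b, a nuclear subunit near the catalytic core, with 2559 and 2626 counts in NC against 2771 and 2621 in KD (0.09, SE 0.09, unadjusted *P* = 0.312, edgeR). Cox6a1 was at 0.08 (SE 0.09) and Cox7c at -0.07 (SE 0.08). In complex V, Atp5k, a subunit of the membrane part, had 1504 and 1413 counts in NC against 1229 and 1304 in KD (-0.17, SE 0.11, unadjusted *P* = 0.164, edgeR), Atp5g2 was at 0.08 (SE 0.08) and Atp5j at 0.08 (SE 0.08). None of these passed the threshold. The 10 members with an NRF1 match in their promoter had log2 fold changes from -0.32 to 0.08 (median 0.006), and the 8 with a YY1 match from -0.14 to 0.08 (median -0.01).

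Several members have near-identical copies, so their counts depend on how reads that map to several places were treated, which is not given in the sources used here. Of the 86 members, 38 share at least one 50-base sequence with another gene, and 5 share over 50% of them. All 50-base sequences of Atp5g2 recur in other genes, 68.5% of those of Atp5l and 66.0% of those of Atp5g1. The pseudogene that shares most with Atp5g2, Gm10175, gave NC counts of 52 and 108 and KD counts of 65, 44 and 100. For Atp5g1 it was Gm10039, with 1010 and 1252 counts in NC against 3150 and 4002 for Atp5g1 itself, and for Atp5l it was Gm10221, with 993 and 930 in NC against 1655 and 1800. The values of these 3 members are therefore uncertain.

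The library labelled siRNA596 replicate 2 differed from the rest over nearly the whole group. The members took 1.97% of its counts, and their summed level was 22912 CPM, which is 262% of the NC mean. The size of this rise depends on the scaling. In CPM, the sum over all genes tested was itself 121% of the NC mean. Scaled by length, the members' sum was 39009 TPM, against 22511 and 22571 TPM in NC. Of the 83 members tested, 82 were above the NC mean, against 48% of 16142 genes, and 69 were over 2-fold above it (83.1%), against 13.6%. These shares describe 1 library, which has no replicate that behaves like it. The class medians of the log2 difference from NC were 1.57 for complex I, 1.20 for its assembly factors, 1.64 for complex III, 1.67 for complex IV and 1.57 for complex V, against -0.05 over all genes. In siRNA596 replicate 1, transfected with the same siRNA, the median over the members was -0.01.

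**Figure D4:**
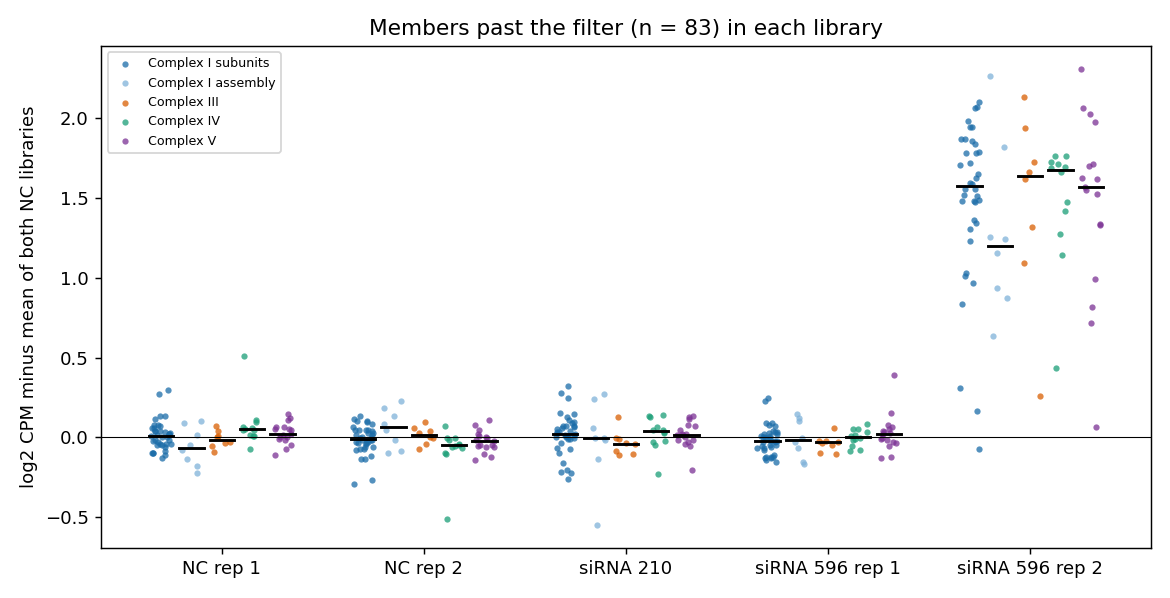
Log2 difference in CPM of each of the 83 members from the mean of both NC libraries, by library and class, with a bar at each class median. The points of the NC libraries mirror each other around 0 by construction, since each value is a difference from the NC mean. Those of siRNA210 and siRNA596 replicate 1 lie near 0 at the median. In the library labelled siRNA596 replicate 2 the class medians lie between 1.20 and 1.67.

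The 5 highest members in that library were Atp5e at 499% of the NC mean, Ndufaf2 at 492%, Uqcr11 at 440%, Ndufs6 at 437% and Ndufa2 at 422%. Atp5e, the epsilon subunit of the ATP synthase stalk, had 1948 and 2274 counts in NC, 2067 and 2002 in the first 2 KD libraries and 7550 in this one. Ndufaf2, an assembly factor, had 395 and 559 in NC, 457 and 500, and then 1675. The lowest, by log2 difference from the NC mean, were Ndufs1 (-0.07), Atp5s (0.07), Ndufa4l2 (0.16), Uqcrc2 (0.26) and Ndufb2 (0.31). Ndufs1, the largest iron-sulfur subunit of complex I, had 2914 and 3658 counts in NC, 2715 and 3198, and then 2233, and was the only member below the NC mean. Ndufb2 had 322 and 425 in NC, 374 and 330, and then 333. Its exons overlap those of Gm42420 on the same strand over 31.9% of its length, and Gm42420 was at 0 in every library. How reads in the shared part were assigned is not given in the sources used here, so the counts of Ndufb2 are uncertain.

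The size of the difference in that library moved with transcript length. Over the 81 members of at least 5 CPM with a length, Spearman's rho between the log2 difference from NC and transcript length was -0.58, and over all 10516 such genes it was -0.68. In siRNA596 replicate 1 the values were 0.07 and -0.02, and with siRNA210 they were -0.16 and -0.14. These correlations are across genes of 1 library, which share its depth and preparation and are not independent replicates. The members' transcripts are short, with a median of 781 bases against 2900.5 in all such genes. Among transcripts of 501 to 750 bases the median log2 difference was 1.71 in 29 members and 1.48 in all 276 genes of that length, and among those of 1501 to 2500 bases it was 1.00 in 12 members and 0.46 in all 2421 genes. When length and GC content entered the fit of all 5 libraries as offsets, the members' median log2 fold change was 0.28, with 77 of 83 above 0. The median over all genes of that fit was 0.02. Without the offsets the members' median was 0.74 with 82 of 83 above 0, against 0.01 and 51.0% over all genes. The part of length, RNA quality or library preparation in the remaining difference was not tested.

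**Figure D5:**
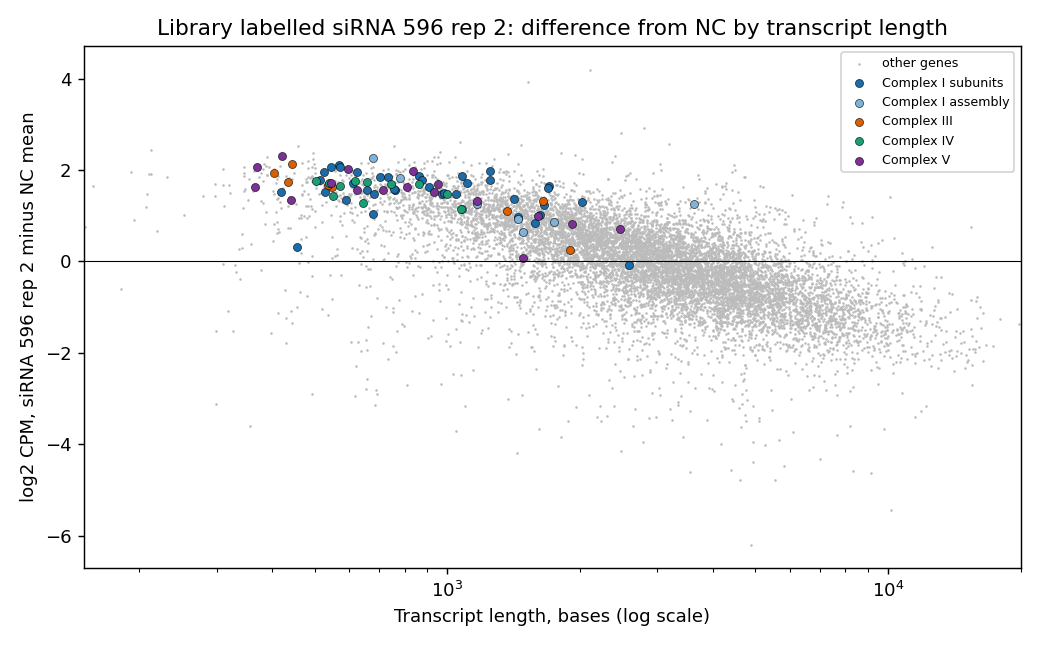
Log2 difference in CPM between the library labelled siRNA596 replicate 2 and the NC mean against transcript length on a log axis, for members by class and for other genes of at least 5 CPM. Over all genes the medians are above 0 up to 2500 bases and below 0 for longer transcripts. The 2 members of 2501 to 5000 bases are Ndufs1 at -0.07 and Ndufaf4 at 1.25, with a median of 0.59. Spearman's rho is -0.68 over all genes and -0.58 over the members.

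With all 3 KD against both NC libraries, no member met the DEG criteria, against 0.353% of 16142 genes, and none had an unadjusted *P* under 0.05 by edgeR, against 0.372%. The lowest unadjusted *P* of a member was 0.134 by edgeR. All 3 KD libraries lay above both NC libraries in 8 members (9.64%), against 8.3% of all genes, and below both in 0, against 9.48%. The 8 were the same genes as with 4 libraries. Both results largely follow from the fifth library, which was above the NC mean in 82 of the 83 members. The median log2 fold change of the members was 0.74 in this fit, and the median over all genes was 0.01. The difference in the summed level was 0.47 on the log2 scale (exact permutation test, two-sided *P* = 0.6, where 3 against 2 cannot go below 0.2).

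Genes that work beside the members are given for comparison, from lists chosen by function. None of the genes of these lists met the DEG criteria or had an unadjusted *P* under 0.05 by edgeR with 4 or 5 libraries. Complex II is the succinate dehydrogenase that feeds electrons past complex I. Its list of 8 genes holds the subunits Sdha to Sdhd and the assembly factors Sdhaf1 to Sdhaf4. These 8 were at a median of 0.05 by log2 fold change over 4 libraries. By log2 difference from NC in the library labelled siRNA596 replicate 2 their median was 0.91. For 33 other assembly factors, among them Surf1 and Sco1 for complex IV, these medians were -0.0014 and 0.69. For Cyc1, Cycs, Usmg5 and Atpif1, which are cytochromes and synthase-associated proteins that the symbol rule does not reach, they were -0.05 and 1.50. For 12 regulators of mitochondrial genes, such as Nrf1, Gabpa, Yy1 and Tfam, they were 0.0027 and 0.04. Gabpa had 3797 and 3799 counts in NC, 3766 and 3715 in the first 2 KD libraries, and 1218 in the last. The 13 protein-coding genes of mitochondrial DNA had medians of -0.10 and 0.58. These lists differ in transcript length, with which the difference in that library moved. The median length was 2695 bases for complex II, 1813 for the other assembly factors and 1029.5 for the group of Cyc1. For the regulators it was 3134.5 bases and for the mitochondrial genes 784, against 781 over the members. The part of length in the differences between lists was not tested. Mt-Co1, a catalytic subunit of complex IV, had 238678 and 213754 counts in NC, 225763 and 233352 in the first 2 KD libraries and 79255 in the last. The other mitochondrially encoded subunits of complex IV had log2 differences in CPM from NC of 0.62 (mt-Co2) and 0.64 (mt-Co3) in that library. Their counts were far lower than those of mt-Co1 and spread within NC. For mt-Co2 they were 915 and 1379 in NC and 1244 in the last library, and for mt-Co3 220 and 470 against 369. In each gene the last count lay between the NC counts before scaling, so no opposite response is concluded.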

How the data were processed

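RNA-Seq of HT22 cells gave 5 libraries, 3 KD and 2 NC. The authors made the deposited counts, which are unnormalized integers, with Trimmomatic, HISAT2 2.1.0, SAMtools 1.7 and featureCounts 2.0.1 on GRCm38 with the Ensembl annotation. The authors' deposited comparison, made with DESeq2 1.26.0, also holds a mean signal per gene (the mean of counts divided by size factors), used here only to find which libraries entered it, and fold changes, standard errors and P-values, which were not used. Strand and multi-mapping settings are not given in the sources used here. Symbols, lengths and coordinates came from GENCODE vM21 (GRCm38), which named 99.5% of the genes, and length is that of 1 chosen transcript per gene.

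Counts were tested in edgeR 4.0.16 (R 4.3.3) by quasi-likelihood, after TMM scaling and filterByExpr, for 4 libraries (main) and all 5. The sum of the members' CPM was tested by exact permutation. CPM printed for single libraries were scaled over all 5. Steps were tested on simulated data. Alternatives were DESeq2 1.42.0 as test or for size factors, library size only, other filters, robust fitting, each library left out, siRNA596 against NC with replicate as a block or unblocked, and offsets for length and GC content. Confidence in single genes is limited by having 2 libraries per side. The genes named were Gas5, the 5 of the pull-down cluster, and the highest and lowest levels and 3 smallest *P*-values of each class. Also named were the 5 highest and lowest in the library labelled siRNA596 replicate 2, and tissue forms. The rest were members with 3 or fewer counts in NC, and the 3 with the most shared sequence. Ndufv3, Ndufa7, Gabpa and mt-Co1 to mt-Co3 were named after their values were seen. The members, gene lists and motifs were chosen with earlier results of these data known. A member counted among the 86 is not reported by name here. Figures were drawn with matplotlib 3.10.9.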

Additional observations from a re-analysis of the deposited data

Results flagged for a closer look

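One value stood out in data that the comparison of 4 libraries does not use. In the library labelled siRNA596 replicate 2 the members took 1.973% of all counts, above the 0.914% and 0.913% of the NC libraries. No group had the 4 libraries needed for a search for single outlying samples.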

How the results depend on the processing

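No member met the DEG criteria under the alternatives run, except that 2 did (Atp5e and Ndufaf2) when siRNA596 was fitted against NC with a replicate block, which is 2.41% of the 83 members against 2.69% of all genes. In that blocked fit the same 2 members had an unadjusted *P* under 0.05 by edgeR, against 2.7% of all genes, and the members' median log2 fold change was 0.79, against 1.00 without the block. Deviations of replicate 1 from the group mean, in siRNA596 and in NC, had a correlation of 0.13 over all genes and 0.26 over the members. With 2 libraries per group, the siRNA596 deviation is set by the difference from the outlying library labelled siRNA596 replicate 2. This correlation therefore cannot show whether the replicates are paired, and with 2 pairs the libraries share only a number. With all 5 libraries the members' median was 0.74, and 0.28 with the offsets, against 0.01 and 0.02 over all genes. With 1 library left out it ran from -0.023 (without siRNA210) to 0.0096 within the 4 libraries, and from 0.69 to 1.02 with the fifth included. The number of members with an unadjusted *P* under 0.05 then ran from 0 to 3. A library left alone in its group was assumed to vary like the others.

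The summed level of the members changed sign with library size only (-0.011), and ran from -0.015 to 0.026 when 1 of the 4 libraries was left out, with the negative values without siRNA210 or NC replicate 2, and up to 0.71 when 1 of all 5 was. With all 5 libraries and library size only, chosen after seeing the data, it was 0.36. The log2 fold change of Gas5 was 0.29 with all 5 libraries, and 0.56 without and 0.39 with the replicate block for siRNA596 against NC. With all 5 libraries and the offsets for length and GC content it was -0.02. With 1 library left out it ran from -0.53 to 0.56, below 0 within the 4 libraries and above 0 with the fifth included, both without offsets. The cause was not tested. With 2 libraries per side, an interval within 2-fold was reached for 81 of 83 members, and the share over all genes is not given here.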
